A study of Mus musculus with 23 samples.

Results

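DNA methylation was examined in the flanks of CpG-dense windows, the stretches of the mouse genome that lie directly beside short windows packed with CpGs. The deposited tables divide the genome into windows with equal numbers of CpG cytosines, so that a short window is CpG-dense and a long one CpG-poor. A flank was defined as a window of 1500 to 8000 bp that directly precedes or follows, with a gap under 1 kb, a window shorter than 1000 bp. On chromosomes 1 to 19 this held for 16395 of 384346 windows (4.27%) in the table of embryonic day (E) 7.5. In the separate set of windows used at E6.5, it held for 13948 of 320494 (4.35%). At E7.5 there were 16681 CpG-dense windows, and 249660 other windows had the length of a flank without touching a dense window.

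The libraries came from reciprocal crosses of C57BL6/Babr (B6) and CAST/Ei (CAST), in which the maternal strain is named first. Epiblast, which gives rise to the embryo proper, and extra-embryonic ectoderm (ExE), a precursor of the placenta, were separated by hand. At E7.5 there were 8 libraries, 2 of each tissue in wild-type B6/CAST and in wild-type CAST/B6, each from 1 embryo. The 15 libraries of E6.5 came from pools of embryos. They were 3 epiblast and 2 ExE libraries of wild-type B6/CAST, the same numbers of wild-type CAST/B6, and 2 epiblast and 3 ExE libraries of matDKO/CAST. The matDKO/CAST embryos had Dnmt3a fl/fl, Dnmt3b fl/fl mothers of mixed B6 and 129 background with a Zp3-driven Cre, which is active in growing oocytes, and CAST fathers. They inherited no maternal copy of either de novo methyltransferase and 1 intact paternal copy of each (Dnmt3a -/+, Dnmt3b -/+). The wild-type groups carried neither Cre nor 129 alleles. The E6.5 libraries were made from part of MNase-digested chromatin and the E7.5 libraries from lysed tissue whose bisulphite conversion was repeated after poor conversion, so that day, material and conversion cannot be told apart.

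CpG-rich stretches, most of them CpG islands, often hold transcription starts and usually stay free of methylation, whereas CpGs elsewhere are mostly methylated in mammalian cells. The stretches beside an island are known as shores, and methylation rises across them. After implantation Dnmt3a and Dnmt3b methylate the genome anew. ExE is known for a lower level over most of the genome and for some methylation at islands of developmental regulators that stay bare in the epiblast.

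The boundaries between the dense window and the flank at 4 loci are printed to show how far CpGs thin out there, and their values are given further on. The flank of Tpst2 was higher in the epiblast, that of Hoxa2 was higher in ExE, that of Plagl1 fell in matDKO/CAST, and that of Kcnq1ot1 was methylated on the maternal allele. Each is the reference sequence of GRCm38 from RefSeq (GRCm38.p6), 300 bases long, with the 150 bases before the flank first, from the dense window save for a gap at Kcnq1ot1, then the first 150 bases of the flank, and with every CpG in capitals. The stretches are chr5:112276851-112277150 on the plus strand (Tpst2), chr6:52164067-52164366 on the minus strand (Hoxa2), chr10:13091039-13091338 on the plus strand (Plagl1, an E6.5 boundary) and chr7:143295487-143295786 on the minus strand (Kcnq1ot1, with 147 bases of the dense window and then a gap of 3 bp before the flank).
Tpst2: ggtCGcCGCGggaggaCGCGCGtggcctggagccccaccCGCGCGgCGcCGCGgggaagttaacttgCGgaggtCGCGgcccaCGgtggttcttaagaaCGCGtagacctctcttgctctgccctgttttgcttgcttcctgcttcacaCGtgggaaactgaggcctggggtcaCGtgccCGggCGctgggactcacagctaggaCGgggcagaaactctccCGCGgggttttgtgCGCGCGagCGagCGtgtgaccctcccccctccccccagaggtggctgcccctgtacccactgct
Hoxa2: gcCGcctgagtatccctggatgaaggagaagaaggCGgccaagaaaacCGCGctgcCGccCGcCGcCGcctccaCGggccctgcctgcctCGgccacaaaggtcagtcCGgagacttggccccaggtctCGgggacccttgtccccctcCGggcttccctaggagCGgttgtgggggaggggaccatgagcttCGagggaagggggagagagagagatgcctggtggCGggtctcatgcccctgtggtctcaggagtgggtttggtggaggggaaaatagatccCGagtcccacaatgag
Plagl1: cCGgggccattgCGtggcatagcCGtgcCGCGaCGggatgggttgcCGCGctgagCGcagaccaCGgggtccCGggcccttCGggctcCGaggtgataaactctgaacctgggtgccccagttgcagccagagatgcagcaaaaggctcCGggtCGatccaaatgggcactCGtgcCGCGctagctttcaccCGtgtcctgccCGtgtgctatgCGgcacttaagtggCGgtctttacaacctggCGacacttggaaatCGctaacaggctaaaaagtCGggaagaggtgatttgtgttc
Kcnq1ot1: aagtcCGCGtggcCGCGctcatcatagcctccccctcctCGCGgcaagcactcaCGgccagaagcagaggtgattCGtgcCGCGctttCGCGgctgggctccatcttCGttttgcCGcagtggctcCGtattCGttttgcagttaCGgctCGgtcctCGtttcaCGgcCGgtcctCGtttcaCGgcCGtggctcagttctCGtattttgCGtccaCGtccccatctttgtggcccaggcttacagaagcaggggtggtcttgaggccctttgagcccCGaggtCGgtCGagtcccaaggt
From the first to the second 150 bases the number of CpGs went from 18 to 11 at Tpst2, from 12 to 4 at Hoxa2, from 13 to 11 at Plagl1 and from 17 to 13 at Kcnq1ot1.

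By definition flanks were longer than the windows they border. The median flank at E7.5 measured 3316 bp (interquartile range 2434 to 4525), against 532 bp for dense windows. Flanks held 14.8 CpGs per kb, close to the 11.0 of other windows of that length and far from the 92.8 of dense windows, and their GC content was 46.6%, against 45.4% and 67.3%. Repeats covered 24.1% of flank sequence and exons 11.1%, against 27.8% and 6.47% in the other windows. The 16395 flanks touched 9671 runs of dense windows, and 6724 of these runs had a flank on both sides. Of the flanks, 55.9% bordered a dense window with an annotated transcription start, and 51.8% one with a protein-coding start. By side, 5177 flanks were classed as upstream and 4999 as downstream of a protein-coding start in its direction of transcription. Another 1009 were classed with starts on both strands, 237 lay between 2 dense windows, and the remaining 4973 were classed without a protein-coding start. The classes with a start hold more flanks than the 51.8%, so that start need not lie in the dense window that the flank touches.

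At E7.5 flanks were methylated to an intermediate level that was lower in ExE. Over the 16383 flanks with a value in every library, mean methylation of the epiblast was 47.7% and 46.5% in the B6/CAST libraries and 47.1% and 48.3% in the CAST/B6 libraries. The ExE libraries gave 40.6% and 38.9% in B6/CAST and 38.8% and 40.3% in CAST/B6. All epiblast libraries lay above all ExE libraries, and their means, 47.4% ± 0.789 (SD, n = 4) against 39.6% ± 0.940 (SD, n = 4), were 7.78 percentage points apart. The other windows differed by 14.9 points, and epiblast and ExE were at 5.48% ± 0.158 (SD, n = 4) and 5.72% ± 0.305 (SD, n = 4) in the dense windows. As a share of the level of the other windows, flanks reached 59.1% to 60.1% in the epiblast libraries and 60.5% to 62.1% in the ExE libraries, which did not overlap.

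Single flanks spread over the whole range. In the average of the epiblast libraries 15.8% of flanks were below 20% methylation and 9.87% above 80%, and in ExE 17.6% and 1.29% were. The tissues were closer at the low end of the range than at the high end. The quartiles were 27.6%, 47.3% and 67.7% in the epiblast and 24.4%, 38.7% and 54.1% in ExE.

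Methylation climbed within 2 windows of the dense window and then levelled off. Counting windows outward without a limit on their length, the epiblast went from 5.48% in the dense window to 44.2% in the first window, 75.4% in the second and 77.3% in the third. ExE went from 5.72% to 37.0%, 61.8% and 63.6%. From the sixth window on, the epiblast was at 79.3% and ExE at 60.8%.

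**Figure D1:**
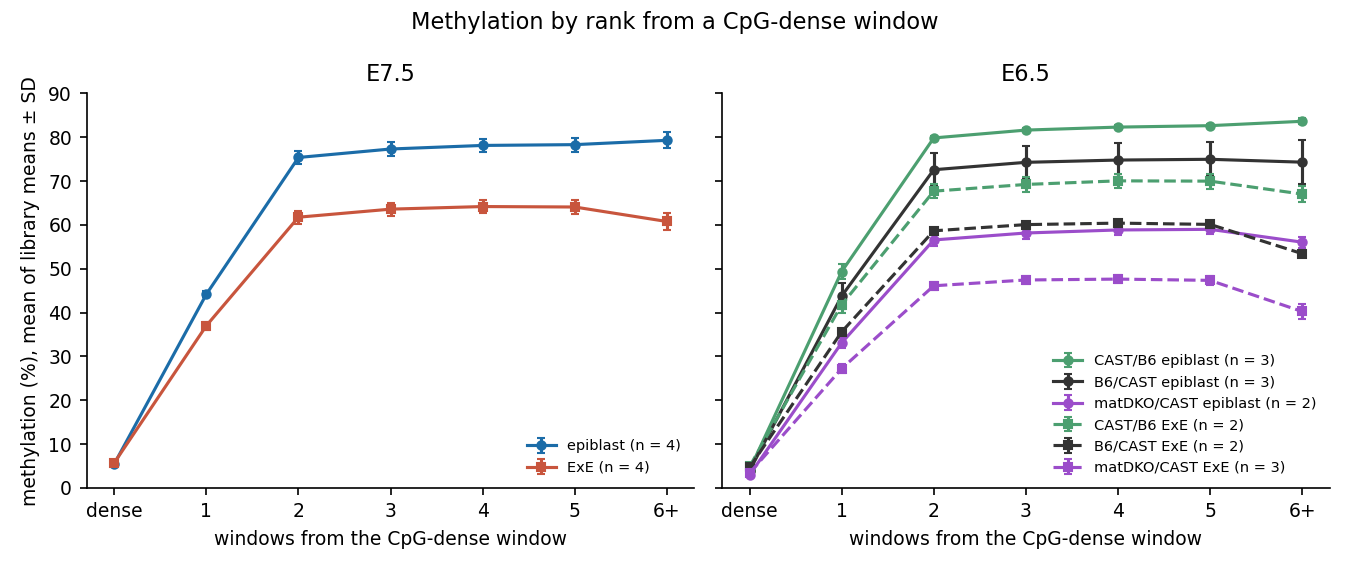
Mean methylation (%, mean of library means ± SD) against the number of windows from the nearest CpG-dense window, at E7.5 for 4 libraries of each tissue (left) and at E6.5 for wild-type and matDKO/CAST libraries (right). At E7.5 the curves start together near 5% and part in the first window, where the epiblast is at 44.2% and ExE at 37.0%.

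The longer a flank, the higher its methylation and the wider the gap between the tissues. Flanks of up to 2000 bp were at 24.2% in the epiblast and 22.7% in ExE, and those above 7000 bp at 66.5% and 52.0%. Windows of the same lengths away from dense windows were at 61.6% and 55.2% in the shortest class and at 81.1% and 61.4% in the longest. In the shortest and the longest class, flanks were below the other windows in both tissues. At the limits of the definition the values ran on without a step. Windows beside a dense window that fell short of 1500 bp by at most 250 bp were at 17.8% in both tissues, and flanks less than 250 bp above that limit were at 21.5% in the epiblast and 20.7% in ExE. Flanks within 500 bp below the limit of 8000 bp were at 66.1% and 50.9%, and windows up to 500 bp above it at 67.5% and 52.9%.

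**Figure D2:**
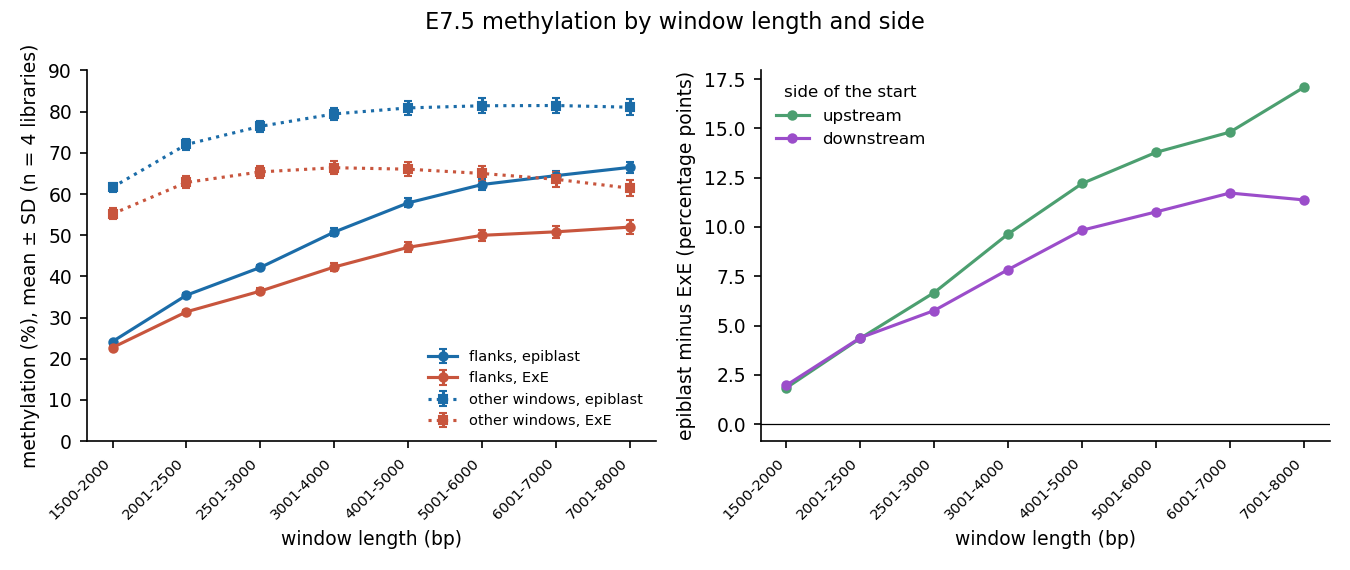
Left, methylation at E7.5 (%, mean ± SD of 4 libraries) against window length for flanks and for other windows. Right, epiblast minus ExE (percentage points) against flank length for flanks upstream and downstream of a protein-coding start, which stay together up to 2500 bp and part above it, to 17.1 and 11.4 points in the longest class.

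The sides of a start differed by tissue. For 4223 runs with 1 flank upstream and 1 downstream of the start, the upstream flank was 1.19 ± 0.471 points (SD, n = 4) more methylated than the downstream one in the epiblast, in 4 of 4 libraries. In ExE the upstream flank was lower, with a difference of -1.43 ± 0.381 points (SD, n = 4) and 0 of 4 libraries above 0. The upstream flanks were also longer, with medians of 3696 and 3207 bp. Among the 1203 pairs whose lengths were within 20% of each other, the upstream flank was lower in both tissues, by -3.51 ± 0.424 points (SD, n = 4) in the epiblast and -5.17 ± 0.221 points (SD, n = 4) in ExE. In the epiblast the sign of the difference thus turned with the matching for length. At E6.5 all 2189 pairs gave 3.41 ± 1.51 points (SD, n = 6) in the epiblast, with 6 of 6 libraries above 0, and -0.325 ± 1.85 points (SD, n = 4) in ExE, with 2 of 4 above 0. The 638 length-matched pairs of E6.5 gave -1.85 points in the epiblast, with 1 of 6 libraries above 0, and -3.71 points in ExE, with 0 of 4.

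Flanks followed the methylation of the dense window they border. Where the neighbour had up to 5% in the epiblast, the 13652 flanks were at 44.0% in the epiblast and 36.8% in ExE. Beside the 441 neighbours above 80%, they were at 83.9% and 71.3%. The tissue difference moved with that of the neighbour as well. It was 14.3 points in the 774 flanks whose neighbour was lower in ExE by more than 5 points, 7.97 points in the 10372 flanks whose neighbour differed by at most 1 point, and -12.1 points in the 61 flanks whose neighbour was higher in ExE by more than 20 points. In these 61 the levels were 34.6% ± 1.25 (epiblast) and 46.6% ± 1.72 (ExE; SD, n = 4 each). At E6.5 the same classes gave 12.2 points (392 flanks), 8.71 points (4907 flanks) and -2.83 points (81 flanks). The 237 flanks between 2 dense windows were at 31.6% ± 0.116 and 31.0% ± 0.566 (SD, n = 4 each). In runs of 4 or more dense windows, 28% of flanks were higher in ExE, against 13.8% beside a single dense window. These are values across neighbouring windows of the same libraries and were not tested.

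The comparison of single windows between the tissues was made with limma, a linear model fitted to all 383556 windows with the cross as a covariate and with adjustment of p over all of them. Of 16383 flanks tested at E7.5, 8707 were more methylated in the epiblast at an adjusted p under 0.05, where 82.9% of all windows were. Another 862 flanks were more methylated in ExE, where 1.30% of all windows were. These shares come to 53.1% and 5.26% of the flanks. When the mean of each library over all windows was subtracted first, which removes the genome-wide difference of 16.3 points, the split turned to 369 flanks higher and 8282 lower in the epiblast. The shares of all windows called in this setting are not given here, so the turn cannot be called particular to flanks. In 6950 flanks every epiblast library lay above every ExE library (42.4%, against 73.8% of all windows), and in 741 every ExE library lay above every epiblast library (4.52%, against 1.35%). Without a test, ExE had the higher mean in 15% of flanks and in 2.34% of the other windows.

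Several features of the flanks higher in ExE were not used to call them. These flanks were short, with a median of 2247.5 bp against 3883 bp for those higher in the epiblast. Repeats covered 15% of them against 26.2%, and exons 17.2% against 9.94%. Of their dense neighbours 26.5% held a protein-coding start, against 54.3%, and 24.6% lay in runs of 3 or more dense windows, against 13.5%. The dense neighbours averaged 3.40% in the epiblast and 9.64% in ExE, against 7.99% and 7.20% beside the flanks higher in the epiblast. The flanks' own median of 11.0% in the epiblast and 25.5% in ExE is a description, since these values made the call.

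Among flanks of protein-coding starts that passed the test and did not overlap between tissues, the difference towards ExE was largest beside Hoxa2, a homeobox gene that patterns the hindbrain and branchial arches. This flank, chr6:52161241-52164216, lies downstream of the start over exons and introns. It was methylated at 7.01% and 5.85% in B6/CAST epiblast and at 1.98% and 0.972% in CAST/B6 epiblast. In ExE it was at 45.4% and 42.8% in B6/CAST and at 36.2% and 35.5% in CAST/B6. The tissues were far apart in all libraries, and the difference was -36.0 ± 2.01 points (SE, adjusted p = 7.92e-05, limma). Its dense neighbour went from 3.33% ± 1.83 to 11.6% ± 3.72 (SD, n = 4 each), a smaller difference than that of the flank.

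Numbl, which encodes an adaptor of the Notch pathway, followed with a flank of 22% in the epiblast and 55.1% in ExE (difference -33.1 ± 6.07 points, SE, adjusted p = 0.00105, limma). Its epiblast libraries ranged from 8.21% to 32.5% and its ExE libraries from 47.5% to 63.9%. The flank of Cbx8, a subunit of Polycomb repressive complex 1, lay between 2 dense windows and mostly over exons (chr11:119037842-119040052). It was at 12.5%, 17.7%, 15% and 18.6% in the epiblast libraries and at 43.2%, 42.2%, 55.0% and 43% in those of ExE. The flank that follows a start of Lrba, a gene of vesicle trafficking, holds the start of Mab21l2, a regulator of eye development, and was at 11.6% and 41.0%. The other 6 bordered starts of transcription factors of embryonic patterning, namely Barhl1, Pax3, Pitx1, Tlx1, Tbx4 and Dbx1. Their epiblast means lay between 4.87% (Dbx1) and 12.5% (Pitx1), and their ExE means between 28% (Dbx1) and 37.5% (Pitx1). At Dbx1 and Tbx4 the dense neighbour differed as well, from 7.91% to 27.2% and from 7.13% to 28.6%, whereas at Numbl it was at 1.09% and 2.55%.

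Towards the epiblast, the flank of Ttl, tubulin tyrosine ligase, differed most. It lies upstream at chr2:129060429-129065247 and was at 78.2%, 94.6%, 92.1% and 85.5% in the epiblast libraries and at 60.1%, 46.3%, 49.3% and 48.6% in those of ExE. The difference was 36.5 ± 4.39 points (SE, adjusted p = 0.000164, limma). Tpst2, a tyrosylprotein sulfotransferase, had a short intronic flank downstream (chr5:112277001-112279031). It was at 56.3%, 50.8%, 57.5% and 63.5% in the epiblast and at 23%, 25%, 23.2% and 17.9% in ExE, beside a dense window under 1% in both tissues. Cldn6, a claudin of tight junctions in embryonic epithelia, went from 57.7% ± 4.53 to 23.6% ± 3.76 (SD, n = 4 each). The remaining flanks of this direction bordered Tmem108, Klhl22, Ctnnd2, H2afv, Gpr160, the divergent starts of Crnkl1 and Cfap61, and Fam163b. Their epiblast means lay between 72.1% (H2afv) and 80.7% (Tmem108), and their ExE means between 38.6% (H2afv) and 47.1% (Fam163b). Of the 20 flanks named in both directions, 0 lost the call when any 1 library was left out.

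Gene lists were described by the flanks that border the listed starts, and their counts read against 82.9% and 1.30% of all windows. With library means subtracted, every difference towards the epiblast of less than 16.3 points turns towards ExE, among them those of Dazl, Setdb1 and Hsp90ab1 below. Under the same setting the flanks of Ascl2 (adjusted p = 0.237), Fgf5 (0.733), Lef1 (0.303), Peg13 (0.698) and Rpl13a (0.0545, all limma) lost the call. Those upstream of Mbd1 (-22.2 points, adjusted p = 0.000202) and Plagl1 (-21.1 points, 0.000699, both limma), uncalled otherwise, were then called higher in ExE. So were those of Dlx5 (adjusted p = 0.00245) and Hsp90ab1 (0.00371, both limma). Of 44 developmental transcription factors, 18 had a flank, 22 flanks in all. 0 were higher in the epiblast and 20 were higher in ExE, with a median difference of -13.5 points, against 7.95 points over all flanks and 16.5 over all windows. Their median level was 6.34% in the epiblast and 20.3% in ExE. They ranged from Pax3, a regulator of neural crest and muscle (6.80% and 32.6%), to Dlx5, a regulator of the craniofacial skeleton (24.1% and 23.5%). T, the mesoderm regulator Brachyury, had 16.3% and 37.7%.

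Of 20 transcription factors of the trophoblast, the lineage that forms the placenta, 10 had a flank. Of the 11 flanks 4 were higher in the epiblast and 3 in ExE. The former bordered Ascl2 (69.0% and 48.4%), Esrrb (72.7% and 53.4%), Ets2 (80.8% and 63.7%) and Klf5 (38.1% and 27.7%). The latter bordered Tfap2a (12.3% and 35.2%), Gata2 (10.4% and 31.9%) and Cdx2 (6.92% and 21.5%). Of 23 germline genes, such as the RNA helicase gene Ddx4, 4 had a flank. All 6 of these flanks were higher in the epiblast, between 11.9 points (Dazl) and 24.9 points (Mael), and their median level was 82.9% in the epiblast and 60.4% in ExE. Of 19 epiblast and pluripotency genes 5 had a flank, and of these 7 flanks 2 were higher in the epiblast and 1 in ExE. That of Fgf5, a growth factor of the primed epiblast, was at 76.2% and 58.5%. The flank higher in ExE bordered Otx2, a regulator of the anterior epiblast, at 2.22% in the epiblast and 19.9% in ExE.

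Of 24 genes of gastrulation signalling 14 had a flank, 15 flanks in all, of which 2 were higher in the epiblast and 2 in ExE. Lef1, a mediator of Wnt signals, was at 65.6% and 45.7%, and Fgf15, a fibroblast growth factor, at 9.11% and 19.2%. Of 24 housekeeping genes 10 had a flank, and 9 of these 16 flanks were higher in the epiblast and 0 in ExE. They ranged from Hsp90ab1, a heat shock protein (15.3% and 14.7%), to Rpl13a, a ribosomal protein (48.5% and 24.0%). Of 23 genes of the methylation machinery 10 had a flank. Of these 13 flanks 5 were higher in the epiblast and 0 in ExE, among them that of Setdb1, a histone methyltransferase, at 45.9% and 33.7%. That upstream of Mbd1, a reader of methylated DNA, was at 35.7% and 41.6%, and that of Dnmt3b at 63.8% and 63.7%, and neither passed. Of 30 imprinted genes with a germline differentially methylated region (gDMR) 11 had a flank, and 4 of these 13 flanks were higher in the epiblast and 0 in ExE. Their median difference was 2.12 points. They ranged from Plagl1 (57.7% and 62.4%) to Peg13, a noncoding RNA (80.5% and 62.7%).

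**Figure D3:**
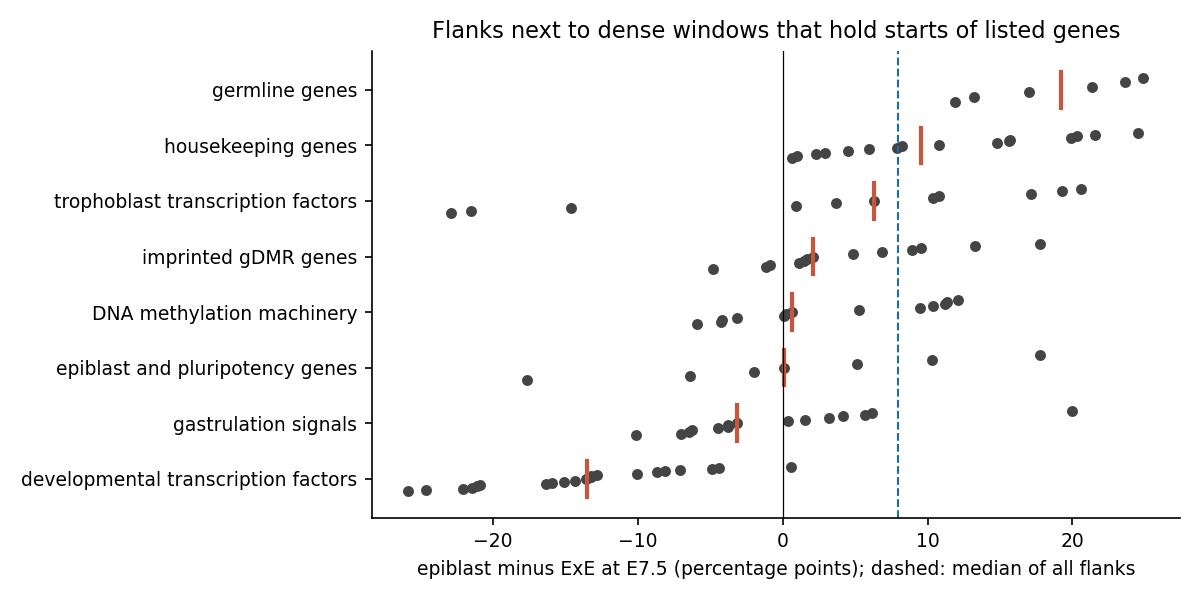
Difference between epiblast and ExE at E7.5 (percentage points) for each flank that borders a start of a listed gene. Points are flanks, red bars are list medians, and the dashed line is the median of all flanks at 7.95. Flanks of developmental transcription factors lie between -25.8 and 0.591, with 21 of 22 below 0, and those of germline genes between 11.9 and 24.9.

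The tissue labels were checked at starts of 2 marker genes. Windows at the starts of Elf5, a trophoblast transcription factor known to be methylated in the embryo proper, were at 66.9% ± 7.51 and 85.9% ± 5.06 in the epiblast of E7.5, and ExE had 35.3% ± 10.6 and 63.9% ± 3.65 there (SD, n = 4 each). The window at the start of Pou5f1, the pluripotency factor Oct4, was at 18.1% ± 5.91 in the epiblast, against 38.9% ± 2.28 in ExE (SD, n = 4 each). Both are in the direction of the labels. At E6.5 the epiblast mean was higher at all 3 Elf5 windows, but the tissues overlapped at 2 of them (75.2% to 95.2% against 69.9% to 85.2%, and 42.5% to 80.4% against 10.7% to 50%). At Pou5f1 the epiblast had 1.79% to 10% and ExE 15.9% to 77.8%. How many cells of other layers each piece held was not tested.

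At E6.5 the gap between the tissues lay beside a gap between the crosses. Over 10773 flanks, epiblast libraries were at 43.1%, 47.8% and 49.1% in B6/CAST and at 54.0%, 52.8% and 50.4% in CAST/B6. ExE libraries were at 38.2% and 37.3% in B6/CAST and at 45.8% and 42.9% in CAST/B6. The tissues overlapped over all libraries, with CAST/B6 ExE reaching into the range of B6/CAST epiblast, and did not overlap within either cross. The difference was 8.93 points within B6/CAST and 8.04 points within CAST/B6. CAST/B6 lay above B6/CAST by 5.72 points in the epiblast and 6.60 points in ExE at E6.5, with no overlap. At E7.5 the corresponding values were 0.619 and -0.216 points, and the crosses overlapped. With limma 2767 of the flanks were higher in the epiblast, where 59.6% of all windows were, and 311 were higher in ExE, where 0.663% were. With the library means subtracted, the split was 61 higher and 1858 lower in the epiblast, and the shares of all windows in that setting are not given here.

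Of the flanks named towards ExE at E6.5, which had a value in every library, that of Gata4, a transcription factor of endoderm and heart, differed most. It lies between 2 dense windows at chr14:63241510-63244564 and had 0% to 8.30% in the 6 epiblast libraries, and 38.5%, 25.8%, 31.5% and 51.8% in those of ExE. Wnt10b, a Wnt ligand, Cbx8, Lmx1a and Emx2, the latter both homeobox genes, followed with epiblast means between 8.58% (Wnt10b) and 13.6% (Emx2) and ExE means between 40.4% (Wnt10b) and 44.2% (Cbx8). With the replicate number as a block, Lmx1a (-20.3 in place of -29.6 points, adjusted p = 0.0767, limma) and Emx2 (-29.9 in place of -28.3 points, adjusted p = 0.0714, limma) lost the call, and 883 flanks were called in place of 3078. Cbx8 was named by the same rule at both days. Towards the epiblast, Mgat5, a glycosyltransferase, went from 67.2% ± 18.8 (SD, n = 6) to 24.7% ± 4.84 (SD, n = 4), which is 42.5 ± 7.29 points apart (SE, adjusted p = 0.00112, limma). Fntb, Ddx20, Brinp2 and Ncoa3 followed with differences of 42.0, 40.9, 39.7 and 39.7 points. That of Ncoa3 lost the call with library means subtracted (23.1 points, adjusted p = 0.0638, limma). Of 13 tested flanks of developmental transcription factors, 7 were higher in ExE and 0 in the epiblast, where 0.663% and 59.6% of all windows were, with a median of -13.6 points, against 8.62 points over all flanks. With the replicate block 3 of the 13 were called, all higher in ExE.

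Since the window sets of the days differ, their flanks are not the same regions. Each day's own flanks differed by -2.12 points in the epiblast and by -1.41 points in ExE, E7.5 minus E6.5. With 1 library left out the former ranged from -3.39 (without B6/CAST replicate 1 of E6.5) to -0.868 points (without CAST/B6 replicate 1 of E6.5), and the latter from -2.65 (without B6/CAST replicate 2 of E6.5) to 0.730 points (without CAST/B6 replicate 1 of E6.5), which turns its sign. In the 3076 flanks of E7.5 that shared at least 80% of their length, and of its counterpart's length, with a flank of E6.5, the direction turned. E7.5 was higher by 2.55 points in the epiblast, with 51.4% ± 0.787 (SD, n = 4) against 48.8% ± 3.92 (SD, n = 6), and by 2.71 points in ExE, with 43.2% ± 1.05 against 40.5% ± 4.14 (SD, n = 4 each). In both tissues the range of E7.5 lay within that of E6.5. In matched flanks of ExE the difference was 6.10 points within B6/CAST and -0.674 points within CAST/B6, and in those of the epiblast it was 5 and 0.0957 points. Over each day's own epiblast flanks it was 0.433 points within B6/CAST, where the days overlapped, and -4.67 points within CAST/B6, where they did not. Of these matched flanks 200 were called higher in ExE at E7.5 and 117 at E6.5, and 96 at both days, which is 48% of the former and 82.1% of the latter. Higher in the epiblast were 1777 and 760, and 644 at both days, which is 36.2% and 84.7%. Of all windows, 1.30% at E7.5 and 0.663% at E6.5 were called higher in ExE, and 82.9% and 59.6% higher in the epiblast. The share called at both days over all windows is not given here, so the overlap has no background beside it.

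**Figure D4:**
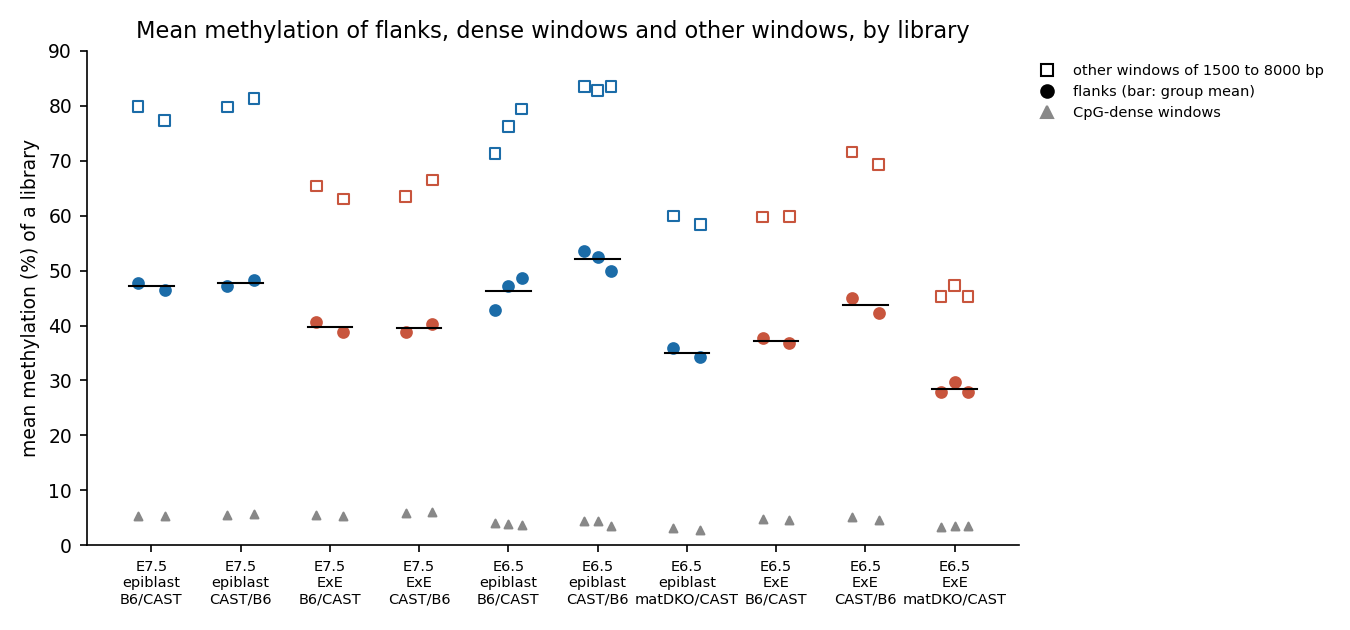
Mean methylation (%) of each library over flanks (filled circles), other windows of the same lengths (open squares) and CpG-dense windows (triangles), for each day, tissue and cross. Bars are group means of the flanks. The matDKO/CAST libraries lie lowest in both tissues of E6.5, between 34.2% and 35.9% in the epiblast and between 27.8% and 29.7% in ExE.

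Flanks were less methylated in matDKO/CAST embryos, and in a proportion close to that of other windows. In the epiblast, over 9032 flanks, the matDKO/CAST libraries were at 35.9% and 34.2%. B6/CAST, the wild type with the same direction of cross, was at 42.8%, 47.2% and 48.6%, and CAST/B6 at 53.6%, 52.5% and 49.9%. All matDKO/CAST libraries lay below all wild-type libraries. The difference from B6/CAST was -11.1 points in flanks and -16.5 points in other windows, or -24.1% and -21.8% of the B6/CAST level. In ExE, over 11102 flanks, matDKO/CAST was at 27.9%, 29.7% and 27.8%, B6/CAST at 37.7% and 36.8%, and CAST/B6 at 45.1% and 42.3%. The difference from B6/CAST was -8.79 points in flanks and -13.8 points in other windows, or -23.6% and -23.2% of the B6/CAST level. With library means subtracted, the flanks of matDKO/CAST were instead higher, by 5.56 points in the epiblast and 3.65 points in ExE, since they had lost fewer points than the genome. Flanks below 20% methylation made up 28.8% and 32% of those of the matDKO/CAST epiblast, against 16.9% to 20.5% in B6/CAST.

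The loss was spread over flanks of all lengths. In the epiblast, matDKO/CAST had 16.4% ± 0.701 (SD, n = 2) in flanks of up to 2000 bp, against 22.1% ± 0.551 (SD, n = 3) for B6/CAST. In flanks above 7000 bp it had 46.1% ± 0.860 (SD, n = 2), against 62.3% ± 4.92 (SD, n = 3). The remaining share was between 74% and 76.6% of B6/CAST in every length class of the epiblast. In ExE it went from 71.3% in the shortest flanks to 78.9% in the longest. As a check of the genotype labels, which methylation can show only indirectly, dense windows at starts of imprinted gDMR genes were averaged. Over 7 such windows the epiblast of matDKO/CAST was at 17.6% and 0.900%, against 42.6% to 48.5% in B6/CAST. CAST/B6 epiblast was at 59.2%, 52.4% and 19.8%, so that its replicate 3 lay close to matDKO/CAST replicate 1. Over 6 such windows ExE of matDKO/CAST was at 11.9%, 13.9% and 8.16%, against 34.5% and 24.9% in B6/CAST and 33.0% and 15% in CAST/B6, so that 1 CAST/B6 library of ExE lay close to matDKO/CAST.

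In limma, 921 of 9032 flanks fell in the matDKO/CAST epiblast, where 23.4% of all windows did, and 8 rose, where 0.0291% of all windows did. This count rests on few libraries. It was 340 without B6/CAST replicate 3, 172 without the unnumbered B6/CAST library, 515, 451 and 482 without CAST/B6 replicates 1, 2 and 3, and 590 without matDKO/CAST replicate 3, for both directions together against 929. 0 flanks passed on the logit scale or with library means subtracted. The E6.5 values were also coarse. Of the flanks, 21.5% had no value in matDKO/CAST replicate 3, against 0.280% in B6/CAST replicate 1, and the tables hold no coverage.

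The deepest losses included imprinted genes whose gDMR is methylated in oocytes. The flank of Plagl1, an imprinted zinc finger gene, lies downstream of its start at chr10:13091189-13093629 and was at 13.6% and 0% in matDKO/CAST, at 68.0%, 43.8% and 87.1% in B6/CAST and at 61.4%, 45% and 69.7% in CAST/B6. The difference from B6/CAST was -59.5 ± 12.4 points (SE, adjusted p = 0.0186, limma). The flank of Airn, the imprinted antisense RNA of the Igf2r locus, lies in an intron at chr17:12742192-12744741. It was at 9.76% and 21.4% in matDKO/CAST and at 54.9%, 92.3% and 68.4% in B6/CAST, a difference of -56.3 ± 9.94 points (SE, adjusted p = 0.0143, limma). At both genes matDKO/CAST and B6/CAST did not overlap. The other 3 named by the rule were Slit1, an axon guidance ligand (19.3% and 71.4%), Spata5 (8.89% and 60.6%) and Itpr3, a calcium channel of the endoplasmic reticulum (6.79% and 58.4%). Of the imprinted genes 5 flanks could be tested, 4 of which fell, where 23.4% of all windows did, with a median of -41.3 points, against -10.6 points over all flanks. None of the 5 was called on the logit scale, with library means subtracted or with the replicate number as a block, under which 0 flanks passed in all.

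The flanks that rose included those of Scarb1, the receptor of high-density lipoprotein (47.9% in matDKO/CAST and 26.7% in B6/CAST), the starts on both strands at Hras and Lrrc56 (29.0% and 7.87%), the starts of Eps15l1 and Gm45779 (68.3% and 47.3%), and Ndufa6, a subunit of mitochondrial complex I (82.2% and 63.8%). At Eps15l1 and Gm45779 the wild-type CAST/B6 libraries were above matDKO/CAST, at 75.8% ± 7.71 (SD, n = 3), and against both wild-type crosses the difference was 6.76 points (adjusted p = 0.305, limma). Of the 10 flanks that the rule picked for the matDKO/CAST epiblast, 8 lost the call when some single library was left out, and those of Airn and Itpr3 kept it.

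In ExE 0 of 11102 flanks, and 0 of 254322 windows in all, passed at an adjusted p under 0.05 in limma against B6/CAST. At an unadjusted p under 0.05, 1650 flanks differed (14.9%), where 25.8% of all windows did. In 4168 flanks (37.5%) every matDKO/CAST library lay below every B6/CAST library, against 48.7% of all windows. Against both wild-type crosses together 2694 flanks passed, where 49.0% of all windows did. By size alone, among flanks that did not overlap, the deepest losses were beside Pkig, a protein kinase inhibitor (21% ± 13.3, n = 3, and 74.1% ± 7.93, n = 2, SD), Mest (11.8% ± 11.2, n = 3, and 57.9% ± 14.9, n = 2, SD) and Plagl1 (18.5% ± 8.70, n = 3, and 64.5% ± 10.9, n = 2, SD). The largest gains were beside Spcs1 and Glt8d1 (37.9% ± 6.57, n = 3, and 15.6% ± 5.38, n = 2, SD), Slc25a4 (39.8% ± 7.60, n = 3, and 19% ± 4.23, n = 2, SD) and Ndufa2 and Ik (53.2% ± 24.0, n = 3, and 33.7% ± 2.03, n = 2, SD). At Ndufa2 and Ik the matDKO/CAST libraries were at 36.1%, 80.6% and 42.9%, and without replicate 2, the highest, the difference fell from 19.5 to 5.77 points. The median difference over the 17 tested flanks of developmental transcription factors was -7.35 points, against -8.35 over all flanks.

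The parental alleles of E7.5 had nearly the same mean level in flanks. Over 13418 flanks in ExE the maternal allele was at 41.4% ± 1.22 and the paternal allele at 41.5% ± 0.990, and they differed by -0.123 ± 0.875 points (SD, n = 4 each). Over 9469 flanks in the epiblast the levels were 50.7% ± 0.709 and 50.8% ± 1.22, and the difference -0.153 ± 1.03 points (SD, n = 4 each). The sign of the difference was that of the cross, positive in both B6/CAST libraries of each tissue and negative in both CAST/B6 libraries. By strain, the B6 allele was above the CAST allele in 4 of 4 libraries of each tissue, by 0.750 ± 0.193 points (SD, n = 4) in ExE and 0.891 points in the epiblast. With limma 0 flanks differed by strain at an adjusted p under 0.05. Unadjusted, 1229 flanks of ExE (9.16%, against 8.73% of all windows) and 1162 of the epiblast (12.3%, against 6.65%) had a p under 0.05. The tissue difference also differed between the crosses in 0 flanks with limma, and in 663 (4.05%, against 4.83% of all windows) at an unadjusted p under 0.05.

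In single flanks a parental difference was called at a few imprinted loci. In each tissue 4 flanks passed in limma, all of them higher on the maternal allele, where 0.00503% of all windows in ExE and 0.00629% in the epiblast did. The 5 flanks concerned were those of Mest, Kcnq1ot1, Airn, Grb10 and Peg3, of which Mest alone borders a dense window with an annotated start, as the naming rule asks, and the others are named after their values were seen. Mest, an imprinted gene of the hydrolase family (chr6:30738319-30739966), had maternal levels of 79.2% and 86.8% in B6/CAST and 97.4% and 96.2% in CAST/B6 of ExE, beside paternal levels of 0%, 3.23%, 1.47% and 5.81%. The difference was 87.3 ± 3.94 points in ExE (SE, adjusted p = 0.0270, limma), against 84.6 ± 4.09 points for the epiblast (SE, adjusted p = 0.0148, limma).

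The flank of Kcnq1ot1, the long noncoding RNA that starts within Kcnq1, lies at chr7:143293438-143295636. Its maternal allele was at 94.8% ± 1.34 in ExE and 95.6% ± 3.0 in the epiblast, and its paternal allele at 1.27% ± 0.629 and 1.26% ± 1.46 (SD, n = 4 each). The flank at Airn within Igf2r, chr17:12742377-12745796, had 92.9% ± 3.53 on the maternal and 18.9% ± 4.92 on the paternal allele of ExE, and 92.6% ± 3.62 and 31.3% ± 12.2 in the epiblast (SD, n = 4 each). There the paternal level was 22.5% and 19% in B6/CAST and 41.3% and 42.1% in CAST/B6. Grb10, an adaptor of growth factor receptors (chr11:12026503-12030208), had 95.6% ± 5.31 and 15.2% ± 7.11 in ExE (SD, n = 4 each) and missing values in the epiblast. Peg3, a zinc finger gene (chr7:6727431-6729283), had 80.4% ± 9.96 and 5.36% ± 4.49 in the epiblast, where it passed, and 77.8% ± 12 and 6.24% ± 5.54 in ExE (SD, n = 4 each), where its adjusted p was 0.0890 in limma. With trend and robust settings of eBayes 0 flanks passed in either tissue, and with the replicate number as a block 0 in ExE and 3 in the epiblast. Leaving out 1 of the 4 libraries leaves 1 library of its cross, and the calls were lost in such fits. The differences changed little, from 85.9 to 88.7 points at Mest in ExE, and most at Airn in ExE, from 70.3 to 77.8 points.

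**Figure D5:**
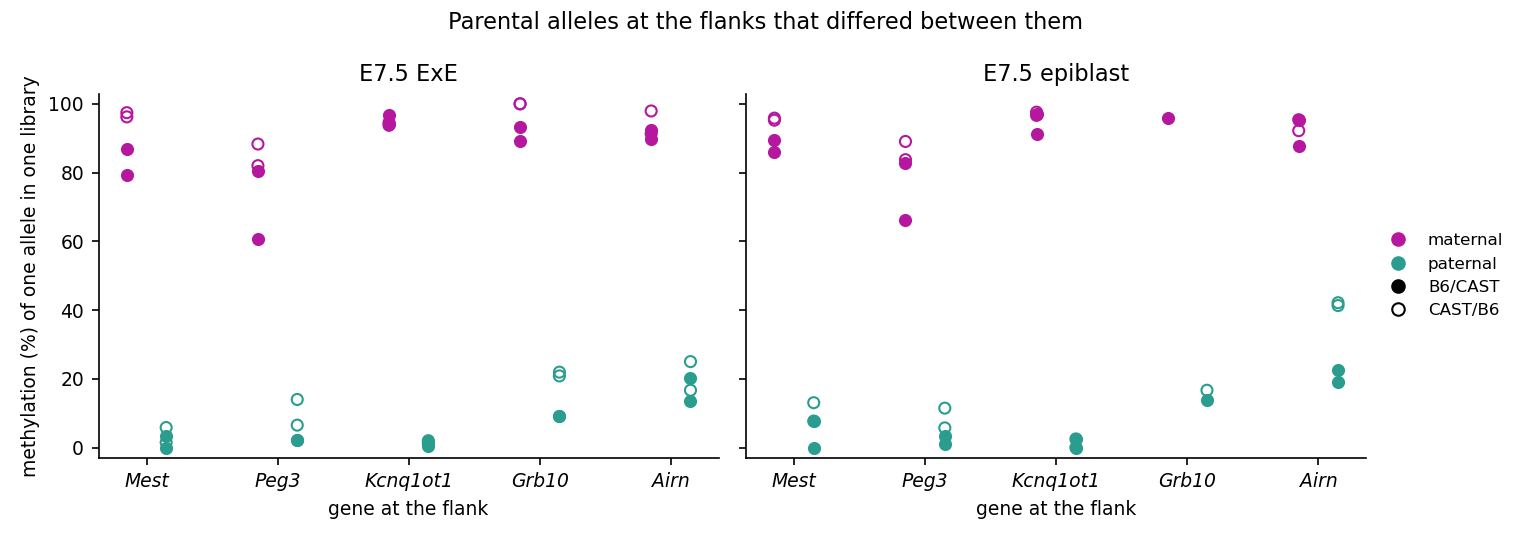
Methylation (%) of the maternal and the paternal allele in each E7.5 library at the 5 flanks that differed between the alleles in 1 or both tissues. Filled points are B6/CAST and open points CAST/B6. Maternal levels lie above 60% and paternal levels below 45%, and Grb10 lacks values in several epiblast libraries.

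Of the listed imprinted genes, 10 flanks could be tested in ExE and 6 in the epiblast, of which Mest passed in both. The largest difference of the opposite sign was upstream of Gnas, the gene of a G protein subunit, at 34.2% on the maternal and 88.4% on the paternal allele of ExE (-54.2 points, adjusted p = 0.121, limma). Without the term for the cross it passed, at an adjusted p of 0.0432 in limma. The flank of Nespas, an antisense RNA of the same cluster, was at 85% and 32.5%. At Igf2r the flank of the protein-coding start was at 41.8% and 71.9% in ExE, and that of Plagl1 upstream of its start at 80.2% and 53.5%. With the cross term these 4 did not pass the test.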

How the data were processed

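DNA methylation was measured by post-bisulphite adaptor tagging (PBAT), in which adaptors are attached after bisulphite conversion so that little DNA is lost. The authors aligned reads with Bismark to GRCm38 with strain SNPs masked and split E7.5 reads by parental genome, and the submitters' processing notes name Trim Galore 0.4.4 and Bismark 0.20.0 for E6.5. The authors deposited percent methylation per window of 100 CpG cytosines, counted on both strands, so that flanks of E7.5 hold a median of 49 CpG sites. The deposited percentages come without coverage, so depth is unknown and no interval of a single value was computed. Libraries with more missing windows (0% to 21.5% of flanks) are likely to be shallower, which was not tested. The number of libraries limits the precision.

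Flanks were found by window length and order. The members and gene lists were chosen with earlier results of these data known. Means were taken over windows with a value in every library compared and were not tested, since flanks are not replicates. Where nothing says that embryos came from separate litters, p-values measure only the spread between these samples. Tests were linear models of percent methylation over all autosomal windows (lmFit and eBayes of limma 3.58.1, R 4.3.3), with Benjamini-Hochberg adjustment and a threshold of 0.05. Tissues were compared with the cross as a covariate, matDKO/CAST with B6/CAST in a fit with all 3 crosses, and alleles as maternal minus paternal within a library, with a signed term for the cross (B6 minus CAST). The fits were tested on simulated data. Named were the flanks of protein-coding starts with the largest difference among those past the threshold whose groups did not overlap (10 per direction for the tissues at E7.5, 5 otherwise, 3 by size alone where 0 passed), 1 within 50 kb. For matDKO/CAST and the alleles, starts of any annotated gene counted. Each gene list is given by its counts, its median and its highest and lowest flank, and further members were named after their values were seen. The results of a few genes are not reported here. UTRs came from the GENCODE annotation and sequences from the RefSeq assembly of GRCm38.p6. Alternatives were the logit scale, other eBayes settings, a replicate block, missing values, mean subtraction, a minimum difference of 20 points, other limits of length and gap, starts, wild-type groups, length weighting, medians, and leaving out each library. The comparison of matched flanks between days was chosen after seeing the data. Python 3.11.15, pandas 2.3.3, numpy 2.4.6 and matplotlib 3.10.9 served for other steps. The name of 1 of the B6/CAST epiblast columns of E6.5 matched no replicate number, and it entered its group without one.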

Additional observations from a re-analysis of the deposited data

Results flagged for a closer look

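In 4 of 70 sets of 4 to 6 libraries that were checked, 1 library lay far from the others by Dixon's criterion, which chance alone gives in about 1 set of 20. The flank of Ctnnd2 was at 51.0% in CAST/B6 epiblast replicate 1 of E7.5 and at 80.5% to 83.3% in the other 3. The flank of Cbx8 was at 55.0% in CAST/B6 ExE replicate 1 of E7.5 and at 42.2% to 43.2% in the others. At E6.5 the flank of Fntb was at 38.3% in B6/CAST epiblast replicate 1 and at 67.9% to 82.2% in the others, and that of Emx2 was at 64.7% in CAST/B6 ExE replicate 1 and at 31.0% to 36.5% in the others. All 4 kept their call without that library.

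The difference between the parental alleles had opposite signs in the reciprocal crosses in every E7.5 library. In ExE the mean over flanks, maternal minus paternal, was 0.626 points in B6/CAST and -0.873 points in CAST/B6. In the epiblast it was 0.738 and -1.04 points. The difference between the crosses itself was not tested.

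The mean over flanks of ExE, E7.5 minus E6.5, was 2.0 points in B6/CAST and -4.82 points in CAST/B6, with no overlap of the days in either cross. This difference was not tested either. In the matched flanks, a comparison chosen after seeing the data, it was 6.10 and -0.674 points.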

How the results depend on the processing

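The number of flanks called for the tissues at E7.5 was 9569, and 8144 to 9240 with 1 library left out. It came to 1304 with a minimum difference of 20 points, 5844 with dense neighbours under 700 bp and 5344 with an annotated start, the latter being 53.0% and 58.3% of the flanks then tested. At E6.5 the 3078 flanks became 1919 with library means subtracted, 1471 with a difference of 20 points, 1837 under 700 bp, 2049 at 2500 to 6000 bp, 1765 with a start, and 2192 to 3361 with 1 library left out. In the matDKO/CAST epiblast 929 became 0 on the logit scale and with means subtracted, 2469 against both wild-type crosses, 533 under 700 bp, 521 with a start, and 172 to 1184 with 1 library left out. In the matDKO/CAST ExE 0 became 2694 against both crosses and stayed at 0 to 0 with 1 library left out. Of the parental calls, 4 in ExE became 0 with trend and robust settings, 8 without the cross term, 2 at 2500 to 6000 bp and 1 with a start. The 4 in the epiblast became 1 on the logit scale, 0 with trend and robust settings, 2 under 700 bp, 1 at 2500 to 6000 bp and 1 with a start. Both were 0 to 0 with 1 library left out. Fewer flanks entered where the limits were narrower.

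The replicate number was not shown to pair the tissues. Deviations of same-numbered libraries correlated at 0.0506 and 0.0486 at E7.5, where each sample went best with its own number, and at most at 0.0267 in B6/CAST at E6.5. With the replicate number as a block, 883 flanks were called at E6.5, 0 in the matDKO/CAST epiblast, 0 for the alleles in ExE and 3 in the epiblast.

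The mean difference of 7.78 points at E7.5 was 9.32 with windows weighted by length, 8.86 as a median, 9.02 at 2500 to 6000 bp and -8.55 with library means subtracted. With means subtracted, 8.48 points at E6.5 became -8.00, and the matDKO/CAST differences of -11.1 and -8.79 points became 5.56 and 3.65, so flanks moved less than the genome. The latter was -9.91 as a median. The differences between days of -2.12 and -1.41 points became 2.55 and 2.71 in matched flanks, an alternative chosen after seeing the data. The flanks of Setdb1 (-4.19), Dlx5 (-15.7), Dazl (-4.45) and Hsp90ab1 (-15.7) turned negative with means subtracted, and that of Hsp90ab1 (-0.0275) on the logit scale. With 1 library left out, Dlx5 ranged from -1.39 to 2.46 and Hsp90ab1 from -2.51 to 3.20.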
